A study of Homo sapiens with 6 samples.

Results

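Cells given ESRP1 or ESRP2 were compared with cells given the control construct LPCX in 2 lines derived from human pancreatic cancer, MIA-PaCa2 and PANC-1, both long established. The labels give 3 genotypes per line, LPCX control, ESRP1 overexpression and ESRP2 overexpression, with 1 library each and no treatment. The 4 ESRP libraries, both paralogs pooled, were set against the 2 LPCX libraries with the cell line as a block. This contrast averages over both paralogs and both lines, so 1 paralog or 1 line can carry a difference. Cells were grown with 10% fetal bovine serum, and mRNA libraries were made from 2 µg of total RNA. The sources used here do not say which promoter drives the constructs or whether a line was 1 clone or a pool. Values are TPM, which scale each transcript's abundance to its length and to the library's total and hold no read depth. Genes entered with at least 1 coding (NM_) transcript and at least 5 TPM in at least 2 of the 6 libraries, which left 10757 of the 27408 genes. In what follows, 3 values in a row are those of LPCX, ESRP1 and ESRP2, in that order, first for MIA-PaCa2 and then for PANC-1. The genes held 87.6% to 91.0% of the TPM of a library. Of them, 8911 reached 5 TPM in every library and 1846 did not. A gene could therefore also enter through its ESRP libraries alone or its LPCX libraries alone.

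Epithelial splicing regulatory proteins bind GU-rich stretches of pre-mRNA near alternative exons. Bound downstream of an exon they are known to favour its inclusion, and bound within or upstream of it they are known to favour skipping. They hold CD44, CTNND1, ENAH and FGFR2 in the splice forms of epithelial cells, and their loss accompanies the transition of epithelial to mesenchymal cells.

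The constructs were found in the libraries that their labels name. ESRP1 stood at 367 TPM in MIA-PaCa2 ESRP1 and 491 TPM in PANC-1 ESRP1, and at 0.261 TPM or less in the other 4 libraries. ESRP2 stood at 197 TPM in MIA-PaCa2 ESRP2 and 308 TPM in PANC-1 ESRP2, at 0.106 TPM or less in the other MIA-PaCa2 libraries, and at 34.8 TPM in PANC-1 LPCX and 37.7 TPM in PANC-1 ESRP1. PANC-1 therefore carried ESRP2 without the construct, and its LPCX library was not free of the protein's mRNA. Among markers of the ductal epithelium, KRT8 lay between 684 and 2223 TPM and KRT18 between 680 and 1747 TPM. KRT19 lay between 234 and 502 TPM, SOX9 between 99.7 and 117 TPM and MUC1 between 10.6 and 28.9 TPM. KRT7 reached 2.00 TPM at most and CDH1 (E-cadherin) 8.59 TPM. EPCAM was listed at 0 in every MIA-PaCa2 library and lay between 24.3 and 28.2 TPM in PANC-1. Of 7 fibroblast markers 4 stayed under 1 TPM, but COL1A2 lay between 122 and 132 TPM in MIA-PaCa2 and COL1A1 between 66.4 and 108 TPM in PANC-1. The islet hormones INS, GCG and SST were listed at 0 in all 6 libraries, the acinar enzymes stayed under 1 TPM, and 4 of 7 leukocyte markers, PTPRC, CD3E and CD14 among them, stayed under 1 TPM. The 7 summed to 27.7 to 36.4 TPM (MIA-PaCa2) and 296 to 365 TPM (PANC-1), most of it CD68, a lysosomal protein that other cells also make, at 20.5 to 23.3 TPM and 295 to 364 TPM. LYZ reached 9.84 TPM.

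The exons below carry the main result or hold the motif searched, and each is coding. They are given 5′ to 3′ on the transcribed strand, from GENCODE release 29 transcripts on GRCh38. Capitals mark TGGTGG and GGTGG, a GU-rich motif reported for these proteins and its 5-letter core.
CD44 chr11:35208105-35208206 (+): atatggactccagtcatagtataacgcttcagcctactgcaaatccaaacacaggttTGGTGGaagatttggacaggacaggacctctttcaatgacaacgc
CD44 chr11:35211246-35211449 (+): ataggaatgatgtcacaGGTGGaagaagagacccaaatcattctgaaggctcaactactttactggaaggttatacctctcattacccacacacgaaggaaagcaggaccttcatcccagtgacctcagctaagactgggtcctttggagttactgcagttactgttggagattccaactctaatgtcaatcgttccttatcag
SLK chr10:104010816-104010908 (+): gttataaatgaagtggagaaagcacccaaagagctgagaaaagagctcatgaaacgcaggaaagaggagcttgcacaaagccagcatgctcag
ENAH chr1:225504991-225505053 (-): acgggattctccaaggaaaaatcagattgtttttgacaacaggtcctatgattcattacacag
VPS39 chr15:42192066-42192098 (-): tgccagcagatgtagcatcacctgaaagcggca
MYOF chr10:93392917-93392955 (-): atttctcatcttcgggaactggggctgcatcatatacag
ARHGAP17 chr16:24939364-24939597 (-): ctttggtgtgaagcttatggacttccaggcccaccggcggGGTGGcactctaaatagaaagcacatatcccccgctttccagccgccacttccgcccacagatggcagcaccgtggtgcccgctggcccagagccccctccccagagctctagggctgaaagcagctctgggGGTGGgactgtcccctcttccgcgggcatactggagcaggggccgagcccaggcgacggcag
OSBPL3 chr7:24863200-24863292 (-): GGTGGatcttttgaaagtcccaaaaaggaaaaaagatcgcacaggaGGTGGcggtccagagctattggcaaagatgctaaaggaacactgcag
NFYA chr6:41080811-41080897 (+): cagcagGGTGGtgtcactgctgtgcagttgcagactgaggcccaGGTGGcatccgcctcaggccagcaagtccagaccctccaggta

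The 102-nt exon of CD44 holds TGGTGG once, the 204-nt exon of CD44 holds GGTGG once, and the exons of ARHGAP17, OSBPL3 and NFYA hold GGTGG 2 times each. The exons of SLK, ENAH, VPS39 and MYOF hold neither. Those of OSBPL3 and NFYA are printed for the motif and were not called by limma on inclusion (adjusted p = 0.0713 and 0.0964). The NFYA exon was included at 24.1%, 15.4% and 9.37% (MIA-PaCa2) and at 48.6%, 29.9% and 27.6% (PANC-1). Of all 2143 exons tested, 7.09% held TGGTGG and 15.1% held GGTGG, a count that includes TGGTGG, and 6.95% and 18.3% held the reverse complements CCACCA and CCACC. Among the 16 exons whose inclusion rose, 1 held TGGTGG and 2 held GGTGG, and among the 4 whose inclusion fell the numbers were 0 and 1. Both shares sit on few exons. Introns beside the exons were not used here, so these numbers speak of the exons alone.

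Inclusion of 16 cassette exons rose and that of 4 fell with either ESRP, in 12 genes. Inclusion is the TPM of transcripts that hold an exon as a percentage of those that hold it and those that span and skip it. The test was limma on log2 odds of inclusion over 2143 exons of 1429 genes, with Benjamini-Hochberg adjustment at 0.05, and 0.933% of the exons were called. With 1 library for each line and construct, the p-values measure the spread between libraries, which here includes any difference between the paralogs or between the responses of the lines. At an unadjusted p under 0.05 there were 112 higher and 79 lower exons. The 20 called exons amount to 14 distinct sets of values, 10 of them higher, because exons held by the same transcripts cannot be told apart. In all, 22 exons were at least 10 points higher and 6 at least 10 points lower than LPCX in all 4 ESRP libraries (1.31%, in 18 genes). For 19 of the 20 called exons, the 4 ESRP libraries all lay on one side of both LPCX libraries, which was so for 9.29% of all exons tested. Without the MIA-PaCa2 ESRP1 or ESRP2 library 2 and 1 exons, in that order, were called lower. Without the LPCX library of a line, here and below, the contrast rests on the other line alone.

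**Figure D1:**
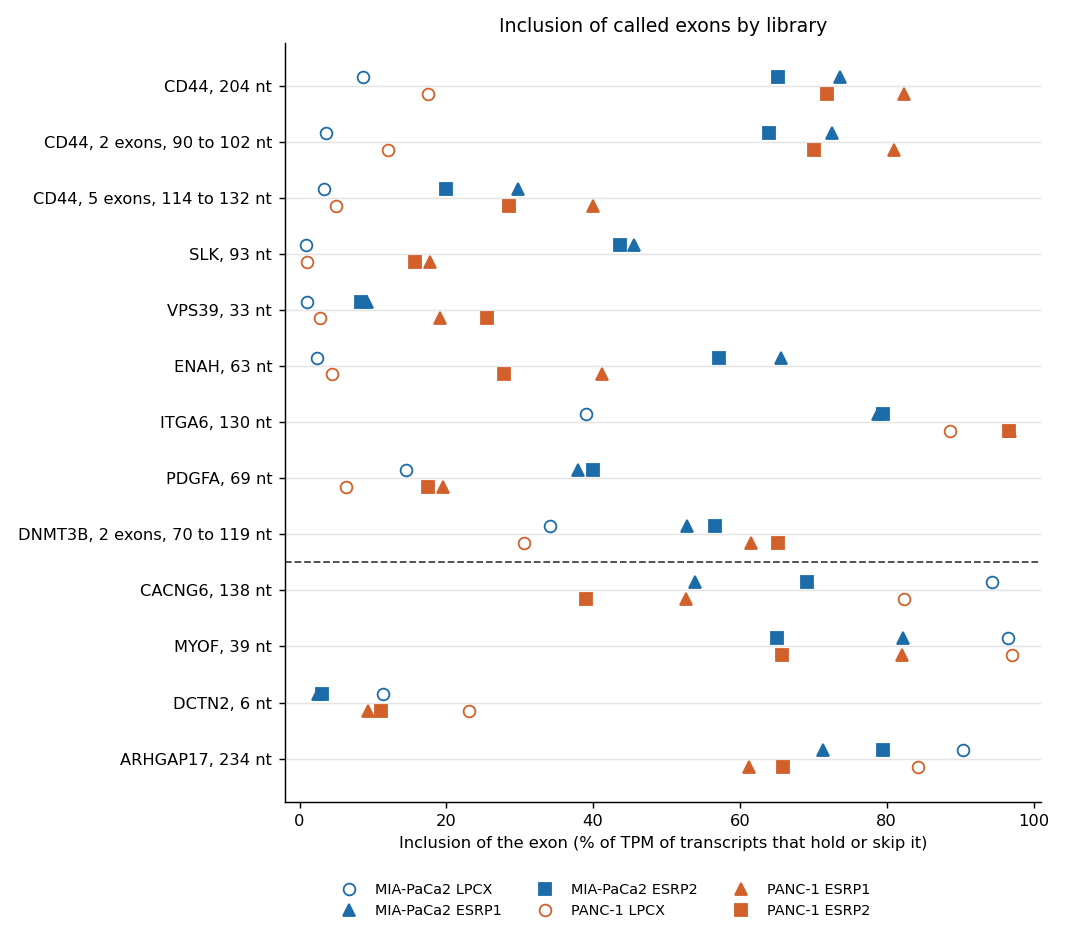
Inclusion in percent (x axis) of called exons, with exons of equal values on 1 line, in MIA-PaCa2 (blue) and PANC-1 (orange). Circles are LPCX, triangles ESRP1 and squares ESRP2, each 1 library; above the dashed line the ESRP libraries lie to the right of the LPCX library of their line, and below it to the left.

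CD44, a hyaluronan receptor whose variable exons lengthen its extracellular stem, gave 8 of the 16 exons that rose. The 102-nt exon printed above, and a 90-nt exon next to it with the same transcripts, stood at 3.67%, 72.6% and 64.0% (MIA-PaCa2) and at 12.05%, 80.9% and 70.1% (PANC-1). All 4 ESRP libraries were far above both LPCX libraries, and the log2 odds rose by 5.16 (SE 0.369, adjusted p = 0.000709). The 204-nt exon, next in the gene, went from 8.64% to 73.7% and 65.2% (MIA-PaCa2) and from 17.5% to 82.3% and 71.9% (PANC-1; log2 odds 4.30, SE 0.308, adjusted p = 0.000709). For 5 exons upstream, of 114 to 132 nt, inclusion was 3.39%, 29.8% and 19.9% (MIA-PaCa2) and 4.91%, 40.0% and 28.5% (PANC-1). The groups did not overlap there either (log2 odds 3.24, SE 0.304, adjusted p = 0.00194). All 8 calls held when any 1 library was left out.

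The CD44 transcripts behind these values are few. The short form NM_001001391, which holds none of the 8 exons, made up 81.4% of CD44 in MIA-PaCa2 LPCX and 81.1% in PANC-1 LPCX. With ESRP1 it made up 14.97% and 16.0% in the respective lines, and with ESRP2 26.3% and 27.0%. NM_001001390, with only the 3 downstream exons, was at 0.280% and 7.13% in the LPCX libraries and between 40.9% and 44.1% in the ESRP libraries. NM_001001389, with all 8, was at 3.13% and 4.49% against 15.7% to 36.8%. As shares these transcripts missed the threshold (adjusted p = 0.0973, 0.314 and 0.152). The level of the whole gene was 679, 697 and 635 TPM (MIA-PaCa2) and 772, 906 and 867 TPM (PANC-1), a difference of 0.08 on the log2 scale (SE 0.0805, adjusted p = 0.601).

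SLK, a STE20-like kinase, and ENAH, an actin regulator at the leading edge of cells, followed with exons almost absent under LPCX. The 93-nt SLK exon was included at 0.827% in MIA-PaCa2 LPCX and 0.999% in PANC-1 LPCX. With ESRP1 and ESRP2 it reached 45.6% and 43.7% in MIA-PaCa2 cells but 17.8% and 15.7% in PANC-1 cells. Every ESRP library was above both LPCX libraries, and both MIA-PaCa2 values were above both PANC-1 values (log2 odds 4.48, SE 0.502, adjusted p = 0.00592). The 63-nt ENAH exon went from 2.40% to 65.6% and 57.1% (MIA-PaCa2) and from 4.45% to 41.2% and 27.9% (PANC-1). Its groups did not overlap either (log2 odds 4.23, SE 0.503, adjusted p = 0.00761). Both calls were lost without the MIA-PaCa2 ESRP2 library (adjusted p = 0.0553 and 0.0653). As a share of its gene, the transcript with the exon had the same log2 odds in both genes. It missed the threshold in the limma test of shares (adjusted p = 0.160 for each gene).

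VPS39 also had an exon that rose. It encodes a subunit of the complex that tethers late endosomes and lysosomes. Its 33-nt exon was at 1.07%, 9.18% and 8.43% (MIA-PaCa2) and at 2.85%, 19.2% and 25.5% (PANC-1). The ESRP libraries were above both LPCX libraries while the exon stayed a minor form (log2 odds 2.40, SE 0.272, adjusted p = 0.00592), and this call held without any 1 library.

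ITGA6, the integrin alpha-6 chain that binds laminin, has an alternative exon that carries the stop codon of one form of its cytoplasmic tail. As a share of the gene, the transcript that skips this 130-nt exon missed the threshold in the limma test of shares (adjusted p = 0.152). The exon itself was included at 39.0%, 78.9% and 79.5% (MIA-PaCa2) and at 88.7%, 96.8% and 96.7% (PANC-1). Within each line both ESRP libraries were above LPCX, but the PANC-1 LPCX library lay above both MIA-PaCa2 ESRP libraries, so the groups overlapped across lines (log2 odds 2.14, SE 0.261, adjusted p = 0.00839). Of the 12 genes with a called exon, ITGA6 was the only one with such an overlap, and without any 1 MIA-PaCa2 library the call was lost (adjusted p up to 0.204).

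PDGFA and DNMT3B also had exons that rose. PDGFA is a growth factor with an alternative basic tail, and its 69-nt exon was at 14.5%, 37.9% and 40.0% (MIA-PaCa2) and at 6.31%, 19.6% and 17.5% (PANC-1). The ESRP libraries of PANC-1 lay just above the LPCX library of MIA-PaCa2 (log2 odds 1.54, SE 0.208, adjusted p = 0.0134). DNMT3B, a de novo DNA methyltransferase, had neighbouring exons of 70 and 119 nt held by the same transcripts. They were at 34.2%, 52.8% and 56.6% (MIA-PaCa2) and at 30.6%, 61.5% and 65.1% (PANC-1), with all 4 ESRP libraries above both LPCX libraries (log2 odds 1.44, SE 0.221, adjusted p = 0.0254). The PDGFA call was lost without the PANC-1 ESRP1 library or any 1 MIA-PaCa2 library (adjusted p up to 0.245). That of DNMT3B was lost without any 1 library (adjusted p up to 0.249).

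Inclusion fell in MYOF, CACNG6, DCTN2 and ARHGAP17. MYOF encodes myoferlin, a membrane repair and fusion protein, and its 39-nt exon was nearly always included under LPCX, at 96.5% and 97.0%. With ESRP1 it stood at 82.2% and 82.1% in the respective lines, and with ESRP2 at 65.1% and 65.7%. The values of the 2 lines lay within 1 point of each other for every construct, which no other called exon showed (log2 odds −3.28, SE 0.463, adjusted p = 0.0173). CACNG6, a gamma subunit of calcium channels, had a 138-nt exon at 94.4%, 53.8% and 69.1% (MIA-PaCa2) and at 82.3%, 52.7% and 39.0% (PANC-1) (log2 odds −2.37, SE 0.313, adjusted p = 0.0122). The order of ESRP1 and ESRP2 differed between the lines there. Without the MIA-PaCa2 LPCX, MIA-PaCa2 ESRP2 or PANC-1 LPCX library MYOF was no longer called, and without either LPCX library CACNG6 was no longer called (adjusted p up to 0.126 and 0.141).

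DCTN2 encodes dynamitin of the dynactin complex and showed a 6-nt exon, an amount of sequence that few reads can tell apart. It was included at 11.4%, 2.49% and 3.08% (MIA-PaCa2) and at 23.0%, 9.38% and 11.1% (PANC-1) (log2 odds −1.66, SE 0.256, adjusted p = 0.0254). The highest ESRP library lay only just under the lower LPCX library. ARHGAP17, a GTPase-activating protein, lost inclusion of a 234-nt exon from 90.4% to 71.3% and 79.5% (MIA-PaCa2) and from 84.2% to 61.2% and 65.8% (PANC-1; log2 odds −1.52, SE 0.254, adjusted p = 0.0424). Its groups did not overlap. Leaving out any 1 library ended the ARHGAP17 call (adjusted p up to 0.341), and any but PANC-1 ESRP2 ended that of DCTN2 (adjusted p up to 0.443).

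Length and coding position of the called exons were not used by the test. Of the 16 that rose, 13 had a length that is a multiple of 3 (81.2%) and 14 lay wholly in coding sequence, and all 4 that fell had both features. Among all 2143 exons tested these shares were 58.2% and 73.3%. Exons that rose were 33 to 204 nt long with a median of 108, near the 102 nt of all exons. Their bases were 46.1% G or C against 50.5% over all exons and 61.2% in the 4 that fell. CD44 alone supplies 8 of the 16. Of the 8 exons that rose in other genes, 5 had a length that is a multiple of 3 (62.5%) and 6 were coding (75.0%), near the shares of all exons.

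The levels of the 12 genes differed little beside their exons. Differences in level ran from 0.01 for CACNG6 to 0.25 for ITGA6 on the log2 scale, and the smallest adjusted p among them was 0.266. ITGA6 was at 26.1, 34.2 and 33.3 TPM (MIA-PaCa2) and at 87.6, 96.2 and 98.5 TPM (PANC-1). SLK was at 73.5, 79.2 and 75.4 TPM (MIA-PaCa2) and at 39.0, 46.3 and 47.8 TPM (PANC-1). For ENAH the levels were 37.3, 38.7 and 34.8 TPM and 29.3, 32.4 and 34.6 TPM, with 1 ESRP library below its LPCX library.

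Of 50 genes reported elsewhere as ESRP splicing targets, 28 had a tested exon and 7 a called one. Among the 7 are CD44, SLK, ENAH, ITGA6, MYOF and ARHGAP17, while VPS39, CACNG6, PDGFA, DNMT3B and DCTN2 stand outside the list. In the 28 genes 61 exons were tested, 12 of which rose and 2 of which fell. These are 23.0% of the target exons, against the 0.933% called over all exons. At an unadjusted p under 0.05 there were 28 higher and 6 lower (55.7%, against 8.91% of all exons). CD44 gave 8 of the 12 exons that rose, with 3 distinct sets of values, so both shares count some values more than once. By gene, 7 of the 28 had a called exon, against 12 of all 1429 genes with a tested exon. The list was drawn up with earlier results of these libraries known, so it is no independent evidence.

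**Figure D2:**
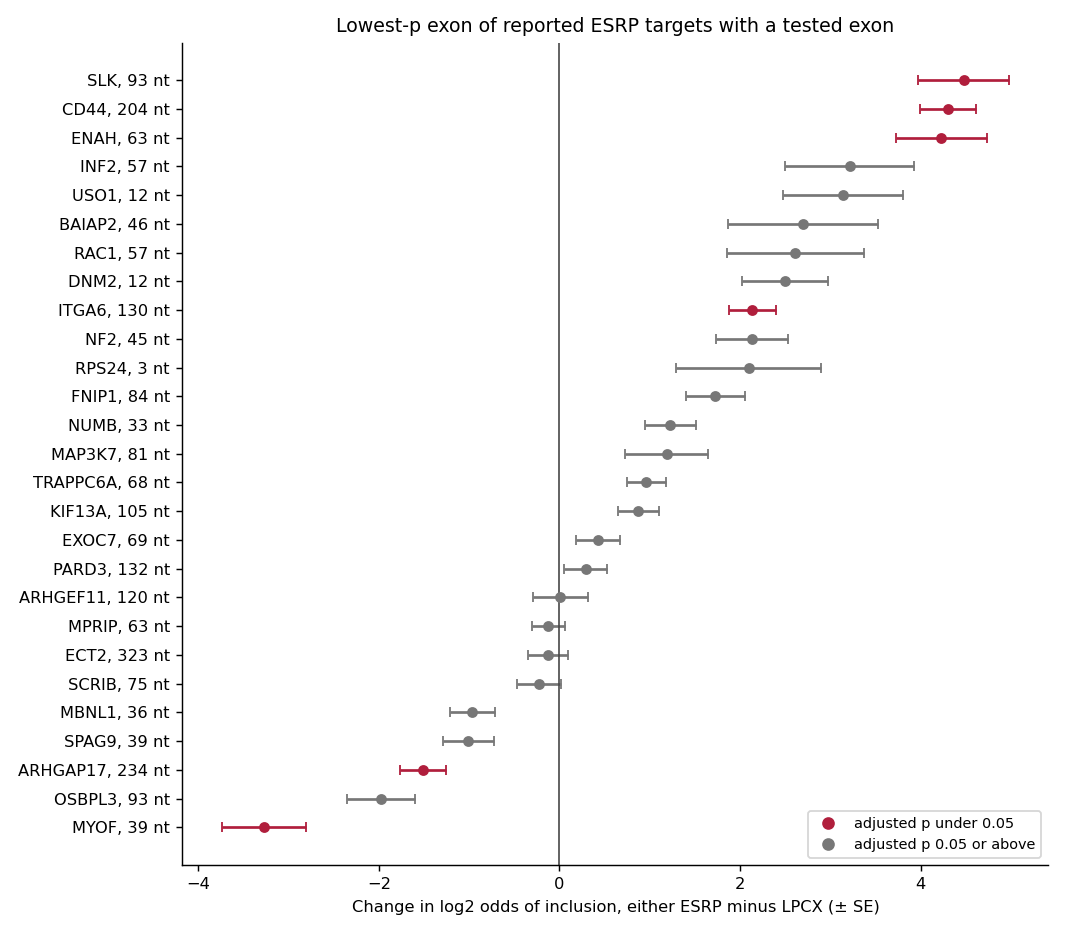
Change in log2 odds of inclusion, either ESRP minus LPCX (x axis, bars are the SE of the fit over 6 libraries), for the lowest-p exon of reported targets, with exon length in nt. Red points passed the adjusted threshold, with CD44, SLK, ENAH and ITGA6 to the right of 0 and MYOF and ARHGAP17 to the left.

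Several targets lay on one side of LPCX in all 4 libraries without passing the threshold. DNM2, the GTPase that pinches off endocytic vesicles, had a 12-nt exon at 15.3%, 48.9% and 74.0% (MIA-PaCa2) and at 67.1%, 86.3% and 89.97% (PANC-1) (adjusted p = 0.0702). USO1, a tether of transport vesicles at the Golgi, had exons of 12 and 21 nt at 1.04%, 25.5% and 43.0% and at 23.2%, 41.7% and 54.3% (adjusted p = 0.0964). OSBPL3, an oxysterol-binding protein, had a 93-nt exon with lower inclusion, at 95.9%, 71.8% and 71.1% against 82.2%, 65.2% and 59.5% (adjusted p = 0.0713). In each of these the ESRP libraries of a line lay together on one side of its LPCX library, and the lines started from different levels. The 57-nt exon of INF2, a formin, was at 17.3%, 87.3% and 88.3% (MIA-PaCa2) and at 86.4%, 96.1% and 93.6% (PANC-1) (adjusted p = 0.107). INF2 was singled out after its values were seen.

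At the other end, 6 of the 28 targets had no exon at an unadjusted p under 0.05. They were EXOC7, PARD3, SCRIB, MPRIP, ECT2 and ARHGEF11. The 120-nt exon of ARHGEF11, a guanine nucleotide exchange factor, was at 52.0%, 60.4% and 42.3% (MIA-PaCa2) and at 57.7%, 62.5% and 54.6% (PANC-1). There ESRP1 lay above LPCX and ESRP2 below it in both lines, so the pooled difference was 0.01 on the log2 odds scale (SE 0.306). FGFR2, the receptor best known for its ESRP-dependent exon, had too little mRNA for the share test. Its epithelial form NM_022970 was at 0, 0.216 and 0.380 TPM (MIA-PaCa2) and at 0, 1.10 and 1.73 TPM (PANC-1). The mesenchymal form NM_000141 was at 0.260, 0.747 and 0.132 TPM and at 1.38, 0 and 0 TPM. Other forms held most of the FGFR2 TPM in each library. Among them, NM_001144913 was at 0, 1.90 and 1.44 TPM and at 0.568, 2.76 and 1.70 TPM. NM_001144919 was at 0.754, 0.360 and 0 TPM and at 1.22, 3.38 and 3.11 TPM. No switch between forms is read from values this low.

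At the level of whole transcripts, 81 of 12702 shares in 5898 genes lay at least 10 points from LPCX in one direction in all 4 ESRP libraries, 43 higher and 38 lower. They belonged to 53 genes, 17 of them among the 43 targets tested here. The background is 0.638% of all transcripts and 0.899% of the genes. At 20 points 10 were higher and 10 lower. No share was called by limma on the log2 odds of transcripts in their genes (0.0% of 12702, smallest adjusted p = 0.0882), while 454 higher and 354 lower shares had an unadjusted p under 0.05. Some shares were called without the PANC-1 LPCX library, but that fit rests on MIA-PaCa2 alone and does not speak of both lines.

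**Figure D3:**
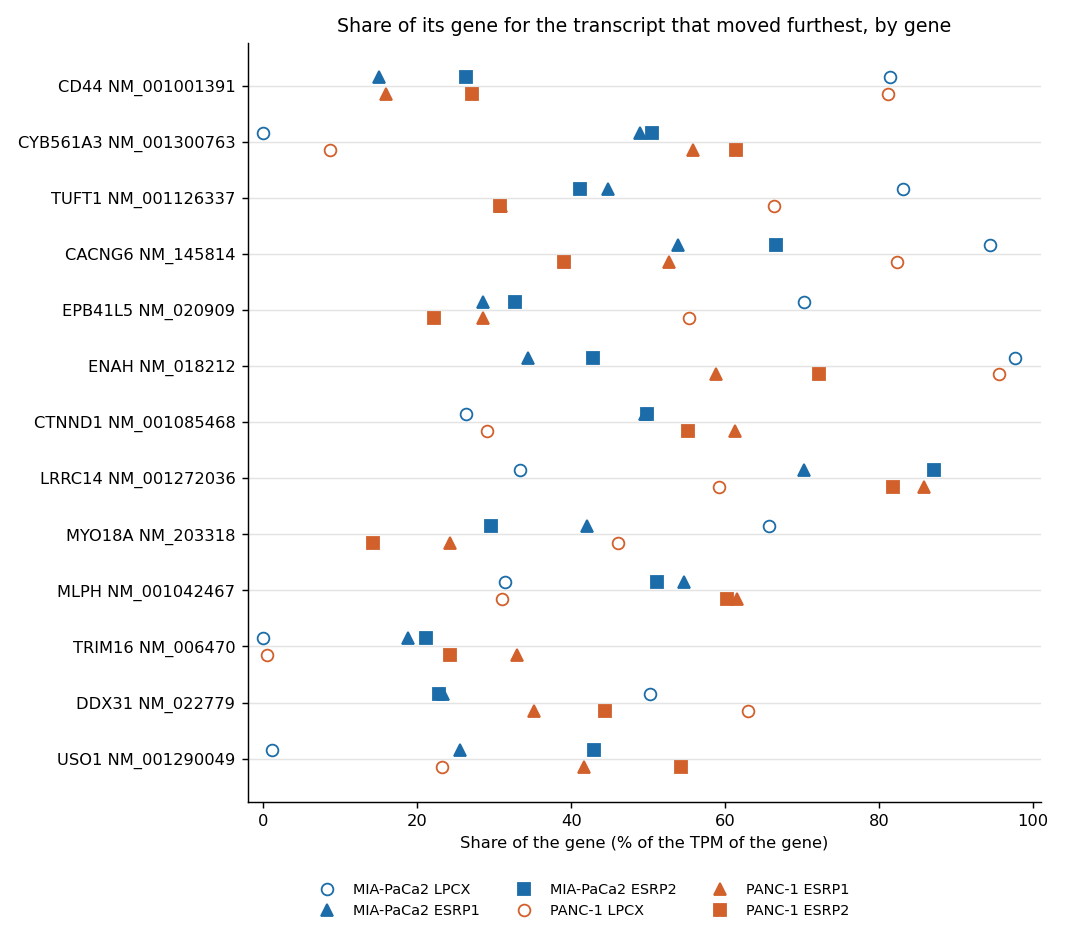
Share of its gene in percent (x axis) for the transcript with the largest common move in its gene, for genes among the 15 with the furthest moves, in order of the smallest of the 4 moves. Circles are LPCX, triangles ESRP1 and squares ESRP2, in MIA-PaCa2 (blue) and PANC-1 (orange), 1 library each; CD44 NM_001001391 lies −54.1 points or further from LPCX and USO1 NM_001290049 18.4 points or further.

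CYB561A3 and TUFT1 had the widest common gaps among genes without a called exon. CYB561A3, of the cytochrome b561 family, was made up of NM_153611 at 98.0% in MIA-PaCa2 LPCX and 85.2% in PANC-1 LPCX, and at 34.7% to 39.6% in the ESRP libraries. NM_001300763 was listed at 0 in MIA-PaCa2 LPCX and made up 8.63% in PANC-1 LPCX, against 48.9% to 61.3% in the 4 ESRP libraries. The groups did not overlap for either form, and the adjusted p was 0.140 and 0.0882. The level of the gene was 24.8, 28.6 and 24.7 TPM (MIA-PaCa2) and 66.7, 67.2 and 66.8 TPM (PANC-1). In TUFT1, tuftelin, NM_001126337 was at 83.1%, 44.7% and 41.1% (MIA-PaCa2) and 66.3%, 30.9% and 30.7% (PANC-1). NM_020127 of TUFT1 was at 15.7%, 55.3% and 56.5% and at 31.7%, 64.6% and 66.1%, so the major form under LPCX was the minor form in every ESRP library. Both TUFT1 forms had an adjusted p of 0.0882, the lowest of all shares.

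CTNND1, EPB41L5 and MYO18A were also among the 15 genes with the furthest moves. CTNND1 encodes p120 catenin, which holds cadherins at the membrane, and its NM_001085468 was at 26.3%, 49.6% and 49.8% (MIA-PaCa2) and at 29.03%, 61.2% and 55.1% (PANC-1). NM_001085460 was at 41.4%, 11.2% and 18.2% and at 33.0%, 5.09% and 12.2%. The ESRP libraries of both lines lay apart from both LPCX libraries for each form (adjusted p = 0.152 and 0.407). EPB41L5, a cytoskeletal linker with a FERM domain, had NM_020909 at 70.3%, 28.6% and 32.7% and at 55.3%, 28.5% and 22.2%. MYO18A, an unconventional myosin, had NM_203318 at 65.7%, 42.0% and 29.6% and at 46.0%, 24.3% and 14.2%. In EPB41L5 and MYO18A, too, both ESRP libraries of a line were on one side of its LPCX library, with an adjusted p of 0.145 and 0.384 for the forms given.

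MLPH, TRIM16, DDX31 and LRRC14 were among the 15 as well. MLPH, melanophilin of organelle transport, had NM_001042467 at 31.4%, 54.6% and 51.1% (MIA-PaCa2) and at 31.0%, 61.6% and 60.3% (PANC-1). TRIM16, of the tripartite motif family, had NM_006470 at 0.0003%, 18.8% and 21.1% and at 0.518%, 32.9% and 24.2%, so that a form near 0 under LPCX was a minor one with either ESRP (adjusted p = 0.0882). DDX31, a DEAD-box helicase, had NM_022779 at 50.3%, 23.4% and 22.8% and at 63.0%, 35.1% and 44.3%. LRRC14, a leucine-rich repeat protein, had NM_001272036 at 33.4%, 70.2% and 87.1% and at 59.2%, 85.8% and 81.8%. The TRIM16, MLPH and LRRC14 forms were higher and the DDX31 form lower in all 4 ESRP libraries.

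No gene level was called in either direction by limma on log2(TPM + 1) with the line as block (0.0% of 10757, smallest adjusted p = 0.244), against 1456 higher and 222 lower at an unadjusted p under 0.05. The overexpressed genes themselves were not called, ESRP1 at log2 4.25 (SE 2.64, adjusted p = 0.446) and ESRP2 at 2.70 (SE 1.80, adjusted p = 0.472). Each was raised by its own construct only, so the pooled test can miss a change made by 1 paralog. In bulk RNA a difference in every cell and one in some of the cells cannot be told apart. Fitted differences were within 1.5-fold for 99.76% of the genes. In all 4 ESRP libraries 3369 genes (31.3%) were above the LPCX library of their line and 663 (6.16%) below it. That tilt depends on the scaling of the libraries. With TPM as deposited 70.97% of the differences were positive and their median was 0.07, while with median ratio scaling 52.8% were positive, the median was 0.01, and 550 higher and 538 lower genes had an unadjusted p under 0.05. Without the PANC-1 ESRP1 or PANC-1 ESRP2 library 908 and 787 genes in all, in that order, had an unadjusted p under 0.05.

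Only GRHL1 and CD99L2 were at least 1.5-fold from LPCX in one direction in all 4 ESRP libraries (0.0186% of the genes), and none was at 2-fold. GRHL1, a grainyhead transcription factor of epithelial cells, was at 3.21, 8.79 and 8.19 TPM (MIA-PaCa2) and at 6.68, 11.6 and 12.01 TPM (PANC-1). All 4 ESRP libraries were above both LPCX libraries (log2 0.96, SE 0.115, adjusted p = 0.244), and the table holds 1 transcript of it, NM_198182. CD99L2, a membrane protein related to CD99, was at 49.5, 28.2 and 31.8 TPM (MIA-PaCa2) and at 172, 74.9 and 94.96 TPM (PANC-1). It was lower within each line, but the ESRP libraries of PANC-1 lay above the LPCX library of MIA-PaCa2 (log2 −0.86, SE 0.114, adjusted p = 0.244). Its main transcript NM_031462 was at 47.0, 25.1 and 30.7 TPM and at 165, 65.6 and 89.0 TPM.

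**Figure D4:**
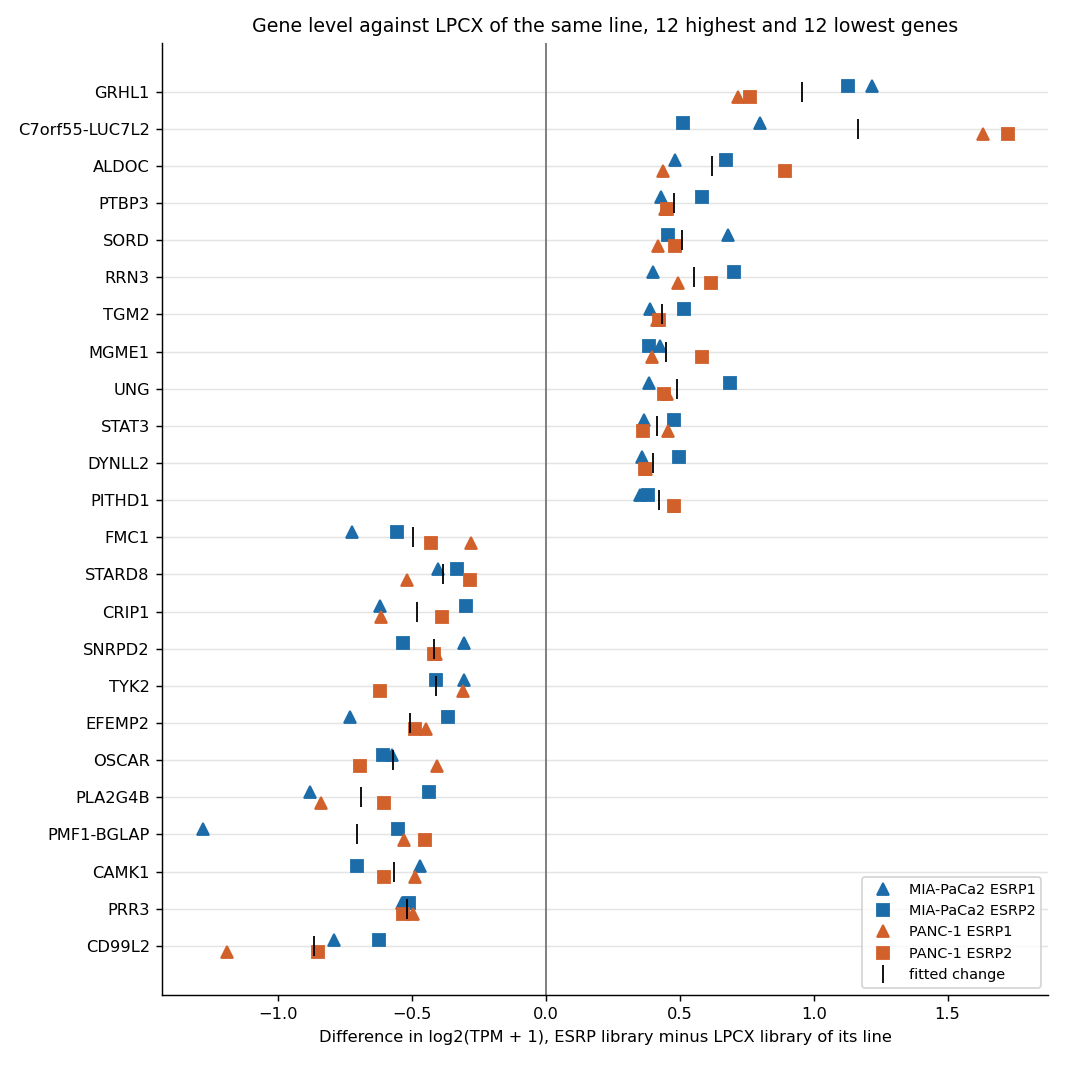
Difference in log2(TPM + 1) of an ESRP library from LPCX in the same line (x axis) for the 12 highest and 12 lowest genes, ranked by the smallest of the 4 differences. Triangles are ESRP1 and squares ESRP2, in MIA-PaCa2 (blue) and PANC-1 (orange), and black ticks are the fitted change; GRHL1 is at the top and CD99L2 at the bottom. The 2 ESRP libraries of a line share 1 LPCX library.

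Behind GRHL1 by the smallest of the 4 differences came C7orf55-LUC7L2, given further on, and ALDOC, an aldolase of glycolysis, with differences between 0.44 and 0.89. ALDOC was at 2.38, 3.72 and 4.38 TPM (MIA-PaCa2) and at 4.31, 6.19 and 8.86 TPM (PANC-1). It reached the 5 TPM for entry only in the PANC-1 ESRP libraries, where it was highest, so its rank is no independent evidence. PTBP3, a splicing regulator of the polypyrimidine tract family, was at 39.8, 54.0 and 60.1 TPM (MIA-PaCa2) and at 55.8, 76.2 and 76.7 TPM (PANC-1) (log2 0.48, SE 0.0663, adjusted p = 0.244). TGM2, a transglutaminase that cross-links proteins, was at 616, 807 and 880 TPM (MIA-PaCa2) and at 31.9, 42.8 and 43.0 TPM (PANC-1) (log2 0.43, SE 0.061, adjusted p = 0.244). The lines differ widely in the level of TGM2, and its ratio to LPCX was nearly the same in both. STAT3, a transcription factor downstream of cytokine receptors, was at 56.2, 72.9 and 78.8 TPM and at 152, 209 and 195 TPM (log2 0.42). UNG, which removes uracil from DNA, was at 92.1, 120 and 149 TPM and at 78.3, 108 and 107 TPM (log2 0.49). SORD, RRN3, MGME1, DYNLL2 and PITHD1 were also among the 12, with fitted differences of 0.40 to 0.55. None of the 12 passed the threshold.

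The lowest genes included 2 signalling kinases and a core splicing subunit. TYK2, a Janus kinase, was at 68.1, 54.97 and 51.1 TPM (MIA-PaCa2) and at 44.5, 35.7 and 28.6 TPM (PANC-1) (log2 −0.41, adjusted p = 0.266). CAMK1, a calmodulin-dependent kinase, was at 33.9, 24.2 and 20.4 TPM and at 10.4, 7.10 and 6.48 TPM (log2 −0.57, adjusted p = 0.244). SNRPD2, an Sm protein of the spliceosome, was at 547, 442 and 378 TPM and at 526, 395 and 393 TPM (log2 −0.42, adjusted p = 0.266), with no overlap between the groups. PRR3, OSCAR, EFEMP2, CRIP1 and STARD8 had differences of −0.57 to −0.38, and CRIP1 was at 2.55 TPM or less in MIA-PaCa2 but at 173 to 265 TPM in PANC-1.

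Some of the 24 genes share sequence with a neighbour, which leaves their values uncertain. C7orf55-LUC7L2 is a read-through of FMC1 and LUC7L2, and the first was at 3.29, 6.47 and 5.11 TPM (MIA-PaCa2) and 0.543, 3.78 and 4.10 TPM (PANC-1). It reached the 5 TPM for entry only in the MIA-PaCa2 ESRP libraries. FMC1 itself was at 20.1, 11.8 and 13.3 TPM and at 7.82, 6.26 and 5.56 TPM. PMF1-BGLAP and PLA2G4B are also part of read-through loci. Among the MIA-PaCa2 libraries PMF1-BGLAP was at 12.7, 4.65 and 8.36 TPM, and PLA2G4B at 5.35, 2.45 and 3.70 TPM. In PANC-1 PLA2G4B was at 6.14, 2.99 and 3.70 TPM, so it reached 5 TPM only in the LPCX libraries. Reads of such pairs are divided by the authors' quantification, and its part in these differences was not tested.

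Genes of lipid synthesis and interferon response stood above the median of all genes as groups, as did reported ESRP targets, epithelial junction genes and other lists. Ribosomal and respiratory genes stood below it, among other lists. Genes of ATF4 and the unfolded protein response had a median of −0.013 (−0.079 after median ratio scaling). Of these 27 genes 12 were positive, and 6 after scaling. No member of any list was called (0.0% over all genes), so the groups are described by counts and medians. The lists were drawn up with earlier results of these libraries known. Over all genes, 70.97% of the differences were positive, 52.8% after median ratio scaling, and an unadjusted p under 0.05 was found upward for 13.5% and downward for 2.06%. Of 25 cholesterol synthesis genes, 23 had a positive difference, 13 had an unadjusted p under 0.05, all higher, and the median was 0.185 (0.12 after scaling). HMGCS1, which makes HMG-CoA, was at 27.7, 33.8 and 36.2 TPM (MIA-PaCa2) and at 33.8, 48.5 and 51.1 TPM (PANC-1) (log2 0.43, adjusted p = 0.252). SQLE, squalene epoxidase, was at 50.5, 62.0 and 56.7 TPM and at 116, 158 and 164 TPM (log2 0.35, adjusted p = 0.266). In 14 of the 25 all 4 ESRP libraries were above LPCX, where 31.3% of all genes were, and the list median ran from 0.02 in MIA-PaCa2 ESRP2, below the 0.04 of all genes in that library, to 0.32 in PANC-1 ESRP2, against 0.10 of all genes. Of 15 fatty acid synthesis genes 14 were positive, among them SCD, the stearoyl-CoA desaturase, at 1092, 1280.5 and 1365 TPM and at 979, 1324 and 1356 TPM (log2 0.36).

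**Figure D5:**
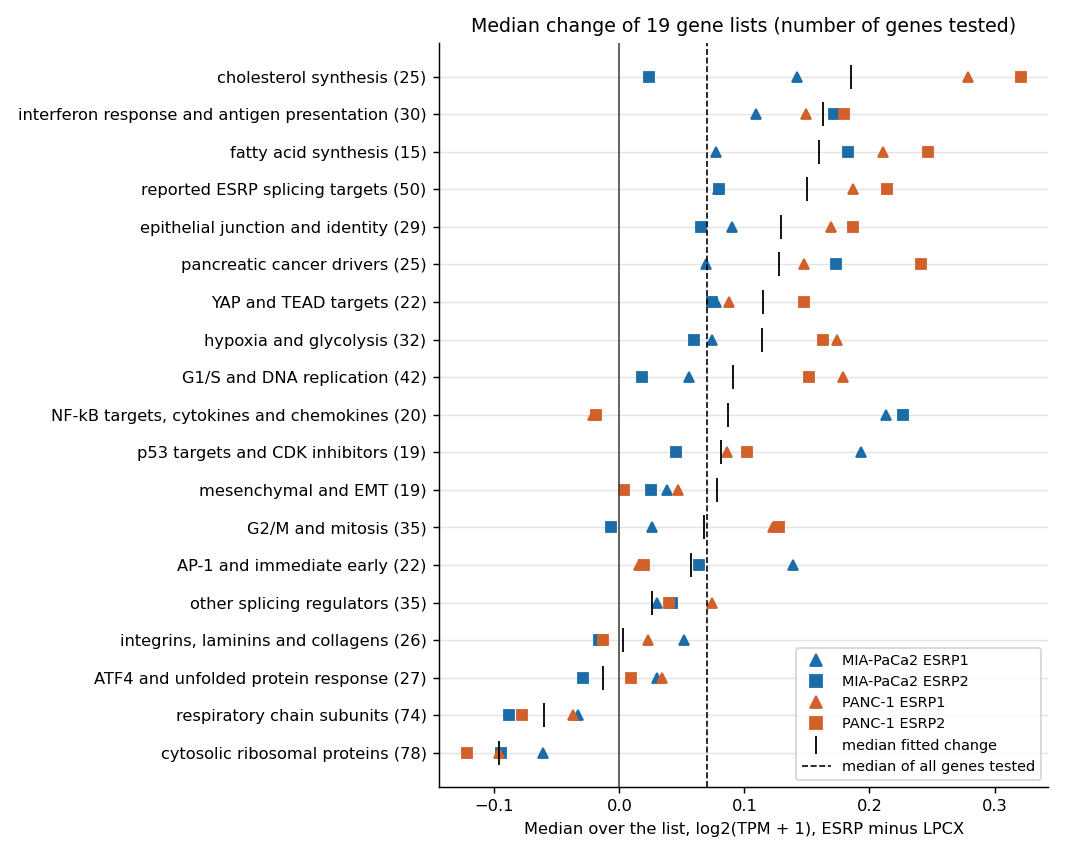
Median difference in log2(TPM + 1) over each of 19 gene lists (x axis; number of genes tested in brackets), for each ESRP library against the LPCX library of its line and for the fit. The dashed line is the median of all 10757 genes, 0.07; cholesterol synthesis lies furthest above it and cytosolic ribosomal proteins furthest below.

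Among epithelial genes 24 of 29 were positive (22 after scaling), with a median of 0.13 (0.08 after scaling). An unadjusted p under 0.05 was found upward for 5 of the 29, close to the 13.5% of all genes. In 9 of the 29 all 4 ESRP libraries were above LPCX, close to the 31.3% of all genes. JUP, plakoglobin of desmosomes and adherens junctions, was at 19.3, 25.6 and 28.3 TPM (MIA-PaCa2) and at 135, 169 and 170 TPM (PANC-1) (log2 0.39, adjusted p = 0.246). TJP1, the tight junction scaffold, was at 24.2, 27.0 and 31.5 TPM and at 29.2, 36.7 and 39.2 TPM (log2 0.31, adjusted p = 0.266). CDH1 was under 0.2 TPM (MIA-PaCa2) and at 3.89, 8.59 and 6.98 TPM (PANC-1) (adjusted p = 0.344). Mesenchymal genes were near the background, with 12 of 19 positive and a median of 0.08. In 3 of the 19 all 4 ESRP libraries were above LPCX, and in 2 all were below. CDH2, N-cadherin, was at 0.0212 TPM or less in MIA-PaCa2 and at 32.4, 51.8 and 47.2 TPM in PANC-1 (adjusted p = 0.330). L1CAM was at 14.5, 16.1 and 18.2 TPM (MIA-PaCa2) and at 139, 188 and 199 TPM (PANC-1) (log2 0.35, adjusted p = 0.266). VIM, vimentin, was at 5523, 5605 and 5620.3 TPM and at 4142.5, 4647 and 4738 TPM (log2 0.10, adjusted p = 0.587), and ZEB1, a repressor of epithelial genes, was between 19.2 and 24.2 TPM in all 6 libraries (adjusted p = 0.746).

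Of 30 genes of interferon response and antigen presentation 25 were positive (24 after scaling) against 70.97% of all genes, and the median was 0.16. An unadjusted p under 0.05 was found upward for 9 of the 30, against 13.5% of all genes. DDX58, the RNA sensor RIG-I, was at 3.33, 4.12 and 5.05 TPM (MIA-PaCa2) and at 42.8, 54.7 and 58.2 TPM (PANC-1) (log2 0.38, adjusted p = 0.266). IFIT3, an interferon-induced protein, was at 7.39, 8.79 and 8.83 TPM and at 165, 204 and 218 TPM (log2 0.29). The ESRP libraries were above LPCX within each line for both. Medians of 0.11 to 0.13 were found for hypoxia and glycolysis genes (29 of 32 positive, 24 after scaling), targets of YAP and TEAD (19 of 22, 16 after scaling) and pancreatic cancer drivers (24 of 25, 21 after scaling), beside the 70.97% and, after scaling, 52.8% of all genes. For G1/S genes the median was 0.09, with 35 of 42 positive and 28 after scaling. For the 50 reported ESRP targets the median level difference was 0.15 (0.09 after scaling), with 48 positive and 38 after scaling. An unadjusted p under 0.05 was found upward for 20 of the 50. For NF-kB targets and cytokines the list medians were 0.21 and 0.23 in MIA-PaCa2 and −0.02 in both PANC-1 libraries. A difference between the lines was not tested for the list. BIRC3, an inhibitor of apoptosis, was at 2.77, 4.79 and 6.13 TPM (MIA-PaCa2) and at 50.5, 53.4 and 55.8 TPM (PANC-1). NFKB1 was at 24.5, 28.6 and 29.2 TPM and at 24.5, 28.7 and 27.1 TPM. For neither gene did the difference between the lines pass the threshold (limma interaction term, adjusted p = 0.967 and 0.985).

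Of 78 cytosolic ribosomal protein genes 16 were positive, with a median of −0.10 (−0.16 after scaling). In 22 of them all 4 ESRP libraries were below LPCX, where 6.16% of all genes were, and 6 had an unadjusted p under 0.05, all lower. RPL27 was at 3714, 3467 and 2590 TPM (MIA-PaCa2) and at 1902, 1481 and 1316 TPM (PANC-1) (log2 −0.38, adjusted p = 0.271). Of 74 respiratory chain subunits 22 were positive, with a median of −0.06, and 9 lower and 3 higher had an unadjusted p under 0.05. NDUFB3, of complex I, was at 104, 89.2 and 78.6 TPM and at 106, 87.8 and 79.3 TPM (log2 −0.32, adjusted p = 0.266). The medians of other splicing regulators (0.03), AP-1 genes (0.06) and integrins, laminins and collagens (0.00) turned negative with median ratio scaling, so no direction is given for them.

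Transcript length moved with these differences. With the 10469 genes of known length split by it into 4 groups of like size, the median difference was 0.008 for the shortest transcripts (177 to 1886 nt), then 0.06 and 0.087, and 0.113 for the longest (4586 to 34526 nt). After median ratio scaling these were −0.055, −0.002, 0.025 and 0.053. The lists differed in length too. Ribosomal and respiratory genes had median lengths of 815 and 945 nt, reported targets 4190 nt and cholesterol genes 2561 nt. The medians climbed in PANC-1 ESRP1 (0.03 to 0.13), PANC-1 ESRP2 (0.03 to 0.16) and MIA-PaCa2 ESRP2 (−0.04 to 0.12), but in MIA-PaCa2 ESRP1 they ran from 0.02 to 0.05 and back to 0.04. The part of length, or of RNA quality, in the differences between lists was not tested.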

How the data were processed

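RNA of 6 cell cultures was sequenced as TruSeq mRNA libraries, per the labels' protocols. Salmon and GRCh38 (hg38) are named in the list of tools and builds, per the submitters' processing notes; the sources used here give neither its version nor the annotation or strand setting. The authors deposited 1 table of an abundance signal per RefSeq transcript in TPM, which keeps no read depth, so no counting error is given. Of its 67792 lines, 8664 repeated a transcript with the same values and were dropped, which left 59128 transcripts that sum to 1000000 TPM per library. Each column took its sample from the line and construct in its header. The column headed ESRP12 was taken as ESRP2 in MIA-PaCa2, and the LPCX column of MIA-PaCa2 was taken by elimination, since its header spells the line differently. LPCX headers carry a final N and ESRP headers a final T, which is unexplained and cannot be told apart from the construct. No column was left unused (0).

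TPM were summed per gene symbol. Limma 3.58.1 with a trend (R 4.3.3) was fitted to log2(TPM + 1) with construct and line as terms, and to log2 odds of transcripts and exons with a pseudocount of 0.5 TPM, with Benjamini-Hochberg adjustment at 0.05 over all features of a kind. Count tests do not apply to TPM. Share tests used genes with at least 5 TPM in every library and transcripts with at least 10% of the gene in some library. For exons, 40705 transcripts (68.84%, with 82.03% of the TPM or more in any library) were paired with GENCODE release 29. Cassette exons needed 5 TPM or more in the transcripts around them and 90% or more of the gene in paired transcripts, both in each library, with inclusion of 5% or above in 1 library or more and 95% or below in 1 or more. Inclusion comes from transcript abundances and not from junction reads. The fits were also run on data simulated from the fits themselves, which checks the code and lends the calls no support.

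The members, the 19 gene lists and 6 marker lists, and the rules were chosen with earlier results of these data known. Of their 740 entries, 19 were matched by another symbol. Named were ESRP1, ESRP2, CDH1, EPCAM, VIM, ZEB1 and GRHL1, the 12 highest and 12 lowest genes by the smallest of 4 within-line ratios, up to 3 genes per list by unadjusted p, transcripts of CD44, CTNND1, ENAH, SLK, FGFR2 and ITGA6 and of the 15 genes with the largest common share moves, called exons and the 12 exons per direction with the largest common moves. The text gives the members of these sets on which a comparison turns. Some genes of these sets are not reported here and not drawn, though counts over all features include them. Alternatives covered pseudocounts, filters, scaling, the block, the trend, separate terms for the paralogs and leaving out each library.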

Additional observations from a re-analysis of the deposited data

Results flagged for a closer look

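For ARHGAP17 the level of the gene was below LPCX in both MIA-PaCa2 ESRP libraries and above it in both PANC-1 ESRP libraries, the pattern that singled it out. The difference between the lines (PANC-1 minus MIA-PaCa2) was 0.1595 on the log2 scale (limma interaction term, adjusted p = 0.967). PDGFA showed the opposite order, above LPCX in MIA-PaCa2 and below it in PANC-1, with a difference between the lines of −0.2479 (adjusted p = 0.967). Neither difference passed the threshold, and both genes are named here for their exons, whose inclusion lay on the same side of LPCX in all 4 ESRP libraries.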

How the results depend on the processing

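The exon alternatives (exons with the same transcripts counted once, no block, separate paralog terms, no trend, no paired minimum) were chosen after seeing the data. At gene level 1 gene, ESRP1, was called with separate terms for the paralogs, and 0 otherwise. Of transcript shares 2 higher and 3 lower were called with a pseudocount of 2 TPM, and 1 lower with separate terms. Leaving out an ESRP library gave 0 in either direction. Of exons, 32 higher and 10 lower were called with a pseudocount of 2 TPM, 28 and 10 with at least 20 TPM around the exon, 10 higher with exons of the same transcripts counted once, 10 and 1 without the line as block, and 2 lower with a pseudocount of 0.1 TPM. Leaving out a library gave 11 to 25 higher and 1 to 5 lower exons. Where groups are left with 1 LPCX library, that library is assumed to vary like the rest. Genes apart in all 4 libraries numbered 4 at a pseudocount of 0.25 TPM and 0 at 2-fold, shares 20 at 20 points and 42 in genes of at least 20 TPM, and exons 8 at 20 points.

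Some levels changed sign. With median ratio scaling these were ZEB1 (−0.00741), ARHGAP17 (−0.0148), CACNG6 (−0.0509), DNMT3B (−0.0302), PDGFA (−0.0117), CYB561A3 (−0.0122), LRRC14 (−0.0079), EPB41L5 (−0.0426) and TRIM16 (−0.0051), and with NM_ transcripts only CACNG6 (−0.00268). Leaving out a library gave −0.0192 to 0.8387 for CDH1, −0.0305 to 0.129 for ARHGAP17, −0.1275 to 0.1466 for CACNG6, −0.0287 to 0.1984 for CD44, −0.00279 to 0.0701 for DNMT3B, −0.0223 to 0.1876 for ENAH and −0.0744 to 0.1735 for PDGFA, and −0.1658 to 0.129 for the share of CD44 NM_001202557. Without the LPCX library of a line, the fit compares ESRP with LPCX in the other line alone. For CDH1, ARHGAP17, CD44 and ENAH the lowest value was that of MIA-PaCa2 alone and the highest that of PANC-1 alone. For CACNG6 and PDGFA it was the reverse. The levels of EPB41L5, MYO18A and TRIM16 were also not on one side of LPCX in both lines. Differences with ESRP1 and ESRP2 were −0.2025 and −0.1297 (MIA-PaCa2) against 0.1503 and 0.2596 (PANC-1) for EPB41L5. They were −0.052 and −0.0598 against 0.1031 and −0.019 for MYO18A. For TRIM16 they were 0.1822 and 0.0524 against −0.019 and 0.008. Causes beyond this were not tested. No named exon changed sign under any alternative run. The block on the line already pairs each ESRP library with the LPCX library of its line. No paired analysis by replicate number was possible because each line and construct has 1 library. TPM holds no depth, which limits the smallest exons and lowest genes in an unknown way.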
